A study of Drosophila melanogaster with 15 samples.

Results

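The nuclear transcriptome of photoreceptors from 30-day-old male flies was compared with that of 10-day-old males. The comparison held 5 of the 15 libraries of an aging series, 2 from day 30 and 3 from day 10, and 10328 of the 17558 genes in the raw count table, namely those above 1 CPM (gene counts scaled to a common library total) in at least 2 of the 5 libraries. The series profiled Drosophila melanogaster males at adult ages of 10, 20, 25, 30 and 40 days. In both groups rh1-GAL4 drove UAS-GFP-Msp300KASH, a green fluorescent protein held on the nuclear membrane by the KASH domain of Msp300, in a background carrying w and ry506, and the labels call this genotype wild type. Flies of both ages were kept at 25 °C in equal light and dark phases, and the labels give no treatment and no difference other than age. Nuclei were pulled out of pooled male heads with an antibody to the fluorescent protein, and each library came from a separate pool of flies. The driver marks the outer photoreceptors R1 to R6, but the study also found it active in the antenna, so nuclei of mechanosensory neurons were likely included. Day 30 replicate 3 was discarded by the study because it aligned poorly and was not part of the comparison.

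Outer photoreceptors detect light with the rhodopsin Rh1, which activates a Gq protein and phospholipase C and opens the TRP and TRPL channels in the rhabdomere, a stack of microvilli. They signal to the brain by releasing histamine from synaptic vesicles, and sodium, potassium and calcium pumps restore the ion gradients that light runs down. Because nuclear RNA was measured, levels follow recent transcription more closely than the total mRNA of a cell does. In such bulk samples a lower level in every cell and fewer nuclei of the expressing type cannot be told apart.

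The libraries carried the transcripts of the intended cell. ninaE, which encodes Rh1, had 28702 and 30346 CPM in the day 30 libraries, against 31912, 26778 and 23871 CPM in the day 10 libraries. All 9 outer photoreceptor markers were measured, and their summed level was 79404 to 86330 CPM at day 30 and 74189 to 111273 CPM at day 10. Rhodopsin genes of the inner photoreceptors R7 and R8 were also present, with Rh3 at 2040 and 1834 CPM at day 30 and 2999, 2034 and 1260 CPM at day 10. Summed glial markers stood at 571 to 657 CPM at day 30 and 636 to 864 CPM at day 10, and summed muscle markers at 483 to 615 CPM at day 30 and 245 to 517 CPM at day 10.

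Depth differed between the ages. Day 30 libraries held 6213255 and 7489039 gene counts, against 9943283, 10673249 and 13530076 at day 10, so every day 30 library was shallower (exact permutation test, two-sided p = 0.1, the smallest that 2 against 3 libraries allow). Alignments that were not unique also separated the ages, described with no test. They numbered 544 and 591 per 100 gene counts at day 30, against 473, 375 and 308 at day 10. Read pairs on no annotated feature, which in nuclear RNA include pairs from introns, numbered 112 per 100 gene counts in each day 30 library, against 103, 100.4 and 60.7 in the day 10 libraries (difference 23.6, exact permutation p = 0.3). Mitochondrial transcripts took 1.35% and 1.22% of gene counts at day 30, against 1.42%, 1.75% and 2.34% at day 10 (exact permutation p = 0.2). Day 10 replicate 3 stood apart from the other day 10 libraries in no-feature pairs and mitochondrial share. Its rank correlations with them across genes (Spearman's rho, log2 CPM) were 0.967 and 0.965, against 0.981 between those 2 and 0.976 between the day 30 libraries. Between day 10 and day 30 libraries they were 0.958 to 0.969, a range that holds both values of day 10 replicate 3. The part of these differences in the results below was not tested.

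Of the 10328 genes, 95 passed the threshold (edgeR quasi-likelihood test, Benjamini-Hochberg adjusted p under 0.05), which is 0.92% of the genes tested. The nuclear RNA of 63 genes (0.61%) rose and that of 32 genes (0.31%) fell. The genes that rose had a median log2 change of 1.37 (the smallest 0.60), and the genes that fell had a median of -0.89 (range -2.48 to -0.57), against 0.03 over all genes tested. A log2 change of at least 1 in size was seen in 50 of the 63 genes that rose and in 11 of the 32 that fell. In all 95 genes the day 30 libraries lay entirely above or entirely below the day 10 libraries, which was also true of 31.8% of all genes tested. An unadjusted p under 0.05 was reached by 1437 genes (13.9%). The number of calls depended on single libraries. It was 11 without day 30 replicate 1, 24 without day 30 replicate 2, 24 without day 10 replicate 1, 31 without day 10 replicate 2 and 214 without day 10 replicate 3. With libraries scaled by their gene counts alone, in place of the TMM factors, the median of all genes moved to 0.23, and 168 genes rose and 14 fell. DESeq2 on the same counts called 157 genes higher and 218 lower.

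The direction of change was related to the level of a gene (plot of log2 change against level). Among the 150 genes with a mean of at least 1000 CPM over the 5 libraries the median log2 change was -0.38, and 0 of them rose while 6 fell. Between 300 and 1000 CPM (441 genes) the median was -0.22, with 2 genes that rose and 10 that fell. Below 3 CPM (2080 genes) it was 0.20, with 6 genes that rose and 0 that fell. Those 6 genes exceeded 1 CPM in at most 1 day 10 library, so they met the filter only through the day 30 libraries. The filter and the level use the same libraries as the change, and their part in this order was not tested. Without day 10 replicate 3 the median of the 150 most abundant transcripts was -0.49. With scaling by gene counts alone it was -0.17, against 0.40 below 3 CPM. The order of the level classes was the same, which a change of scaling can hardly alter. The gene groups described below differ in level, and most list medians are therefore given with that of all genes in the level class that holds its median level.

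**Figure D1:**
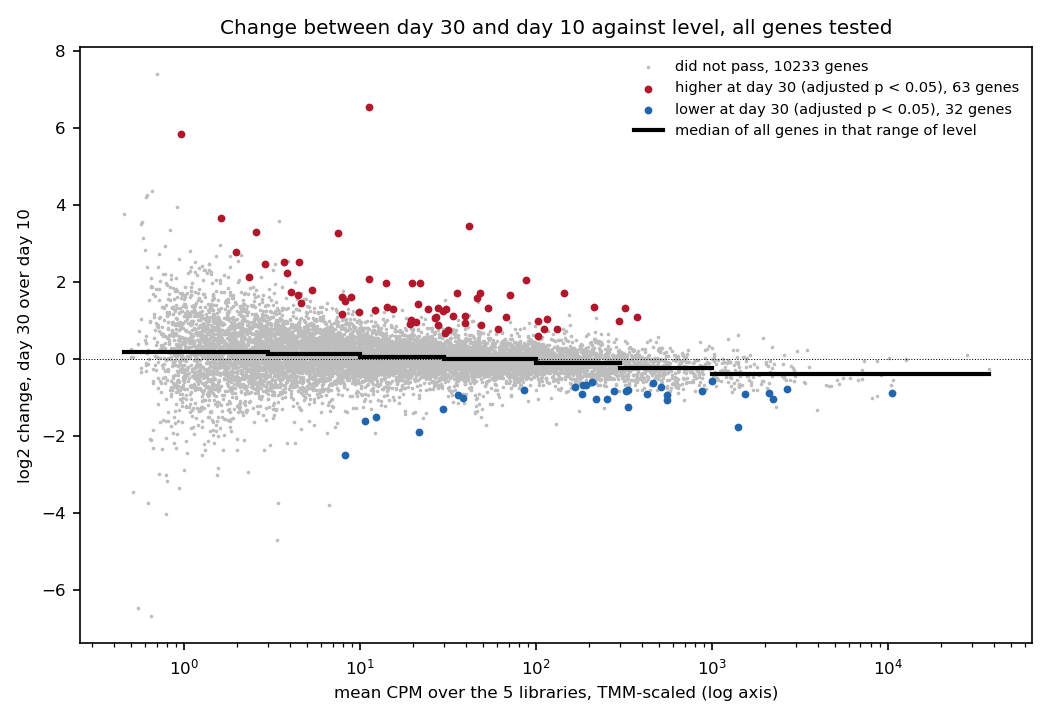
Each point is 1 of the 10328 genes, with its mean level over the 5 libraries (TMM-scaled CPM, log axis) against its log2 change at day 30 over day 10. The black steps give the median of all genes in 7 ranges of level. They run from 0.20 below 3 CPM to -0.38 at 1000 CPM and above, and the 63 genes that rose lie mostly at lower levels than the 32 that fell.

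Arc1 was among the 12 named genes that rose. It encodes a protein derived from a retrotransposon Gag that forms capsids and carries its own mRNA at the fly neuromuscular junction, and its mammalian relative is an activity-induced gene. Arc1 (2R:14357927-14360297, BDGP6, as all positions here) had 165 and 161 CPM at day 30, against 30.8, 35.1 and 49.97 CPM at day 10 (log2 change 2.07 ± 0.23 (SE, n = 2 and 3, as for all such values), edgeR adjusted p = 0.000558). The day 30 libraries were close to each other and more than 3 times as high as any day 10 library. CG9759 (3R:13607078-13609246) had 76.4 and 108 CPM in the day 30 libraries, against 5.94, 10.1 and 9.11 CPM at day 10 (log2 change 3.45 ± 0.41, adjusted p = 0.000558). CG31100 (3R:8995229-9003650) had 59.9 and 62.5 CPM at day 30 and 19.7, 15.9 and 20.3 CPM at day 10 (log2 change 1.71 ± 0.21, adjusted p = 0.000581). These 3 genes passed the threshold under all 27 alternatives in the processing or the libraries used.

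The 3 neighbouring cytochrome P450 genes rose together. Cyp4p2 (2R:9237512-9239831) had 313 and 186 CPM at day 30, against 75.3, 78.8 and 71.7 CPM at day 10 (log2 change 1.73 ± 0.27, adjusted p = 0.00506). Cyp4p1 (2R:9240041-9242139) stood at 142 and 101 CPM at day 30 and 29.5, 43.7 and 40.6 CPM at day 10 (log2 change 1.68 ± 0.28, adjusted p = 0.00681). Cyp4p3 (2R:9242320-9244410) had 16.02 and 13.9 CPM, against 4.03, 4.11 and 6.26 CPM at day 10 (log2 change 1.62 ± 0.29, adjusted p = 0.0124). The 3 genes lie head to tail on the plus strand with gaps of 209 and 180 bp. Cytochrome P450 enzymes oxidize lipids, hormones and foreign compounds. Apart from these neighbours, none of the other measured members of the family passed: of 72 tested, 3 rose and 0 fell, against 13 and 1 of all 2465 genes of 3 to 10 CPM. The family's median log2 change was 0.15, as was that of all genes in that class. It was 0.04 without day 10 replicate 2 and 0.00 without day 30 replicate 2. Because the genes are paralogs and pairs aligned to several places were not counted, their individual levels are uncertain.

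nompB (2L:21578292-21589423) encodes an intraflagellar transport protein needed to build sensory cilia, and it had 34.05 and 17.3 CPM at day 30, against 5.49, 5.06 and 8.60 CPM at day 10 (log2 change 1.98 ± 0.42, adjusted p = 0.0372). TTLL12 (2R:7810068-7812028), of the tubulin tyrosine ligase-like family, had 83.7 and 70.8 CPM at day 30 and 19.05, 29.3 and 28.5 CPM at day 10 (log2 change 1.59 ± 0.36, adjusted p = 0.0468). Singled out after their values were seen, Dhc62B, an axonemal dynein heavy chain, had 13.2 and 13.9 CPM at day 30 and 3.25, 6.43 and 4.52 CPM at day 10 (log2 change 1.52), and Oseg4, another intraflagellar transport gene, had 7.24 and 6.64 CPM at day 30 and 3.02, 1.79 and 1.46 CPM at day 10 (log2 change 1.75). Both passed the threshold. Other genes of the ciliated auditory neurons and their support cells did not pass. Shown here are nompA and nompC, which had the lowest log2 changes of the 7 auditory markers tested. nompA, which links the cilium to the overlying structure, had 4.16 and 4.95 CPM at day 30 and 17.1, 13.3 and 21.5 CPM at day 10 (log2 change -1.92 ± 0.56, adjusted p = 0.113), and the mechanotransduction channel gene nompC had 3.39 and 3.99 CPM at day 30 and 6.39, 5.27 and 9.91 CPM at day 10 (log2 change -0.96 ± 0.52, adjusted p = 0.442). Of 7 auditory markers tested, 1 rose, 0 fell and 5 had a negative log2 change (median -0.38, against 0.05 over all genes of 10 to 30 CPM). The remaining markers had log2 changes of -0.68 (eys), -0.38 (Rfx), -0.01 (dila) and 0.30 (btv). Of all 2297 genes of 10 to 30 CPM, 18 rose and 4 fell.

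Of the remaining named genes that rose, Cbs (X:21045138-21049096) encodes cystathionine beta-synthase, the enzyme that commits homocysteine to cysteine synthesis. It had 79.7 and 86.1 CPM at day 30, against 21.7, 26.7 and 26.4 CPM at day 10 (log2 change 1.73 ± 0.28, adjusted p = 0.00589). Muc14A (X:16009114-16061722), a mucin gene, had 47.8 and 24.04 CPM at day 30 and 10.6, 6.85 and 9.54 CPM at day 10 (log2 change 1.99 ± 0.28, adjusted p = 0.00215). The day 30 libraries of Muc14A differed from each other, and the lower one was above all day 10 libraries, as the naming rule required. CG10126 (3R:12855544-12859246) had 42.98 and 36.6 CPM at day 30, against 8.74, 6.64 and 14.4 CPM at day 10 (log2 change 1.98 ± 0.28, adjusted p = 0.00271). The pseudogene CR43281 (2R:4780311-4783646) stood at 30.5 and 11.4 CPM at day 30 and 4.82, 4.95 and 4.95 CPM at day 10 (log2 change 2.08 ± 0.33, adjusted p = 0.00536).

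Yp1 (X:10053811-10055498), a yolk protein gene of the female fat body and ovary, had uneven replicates. It had 1.39 and 53.6 CPM at day 30, against 0.224, 0.632 and 0.0728 CPM at day 10 (adjusted p = 0.0468). Its day 10 values rest on 2, 6 and 1 read pairs, so no fold is given. Day 30 replicate 2 carried nearly all of the signal, and without it the adjusted p was 0.814. Yp3 had 107 and 139 CPM at day 30 and 112, 77.7 and 47.1 CPM at day 10 (log2 change 0.64 ± 0.37, adjusted p = 0.486). Yp1 held its call under 11 of 26 alternatives. The other fat body and female markers measured, Lsp2, Lsp1beta, apolpp, to and Cyp4g1, had log2 changes of -0.70 to -0.04 and did not pass.

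**Figure D2:**
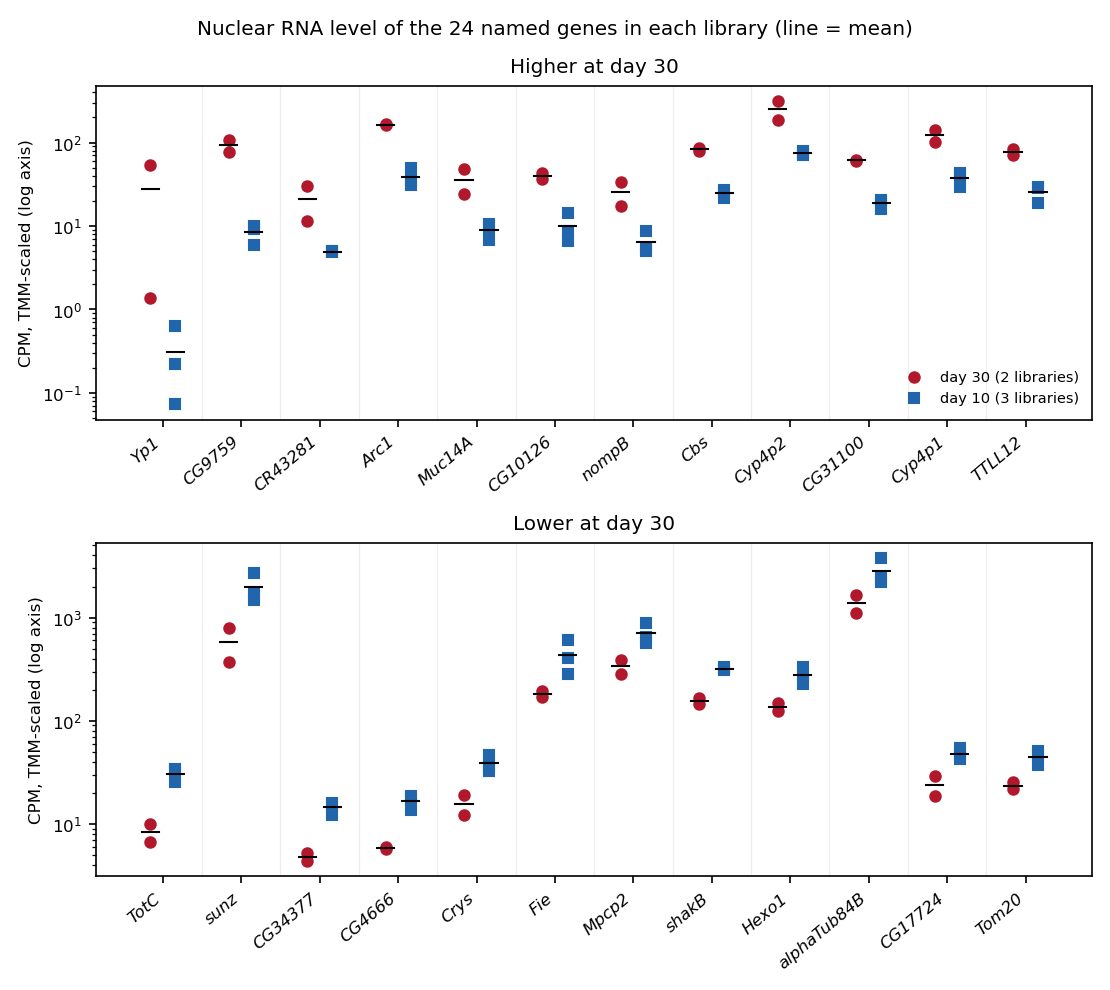
Level of each of the 24 named genes in each library (TMM-scaled CPM, log axis), with day 30 as red circles and day 10 as blue squares and the group mean as a black line. Upper panel, the 12 genes that rose, in which the 2 Yp1 values at day 30 (1.39 and 53.6 CPM) lie far apart. Lower panel, the 12 genes that fell, where no day 30 library reaches a day 10 library, as the naming rule required.

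Among 14 immediate early and activity genes, only some of which neurons transcribe within minutes of firing, Arc1 alone passed the threshold. Of all 1847 genes of 30 to 100 CPM, 16 rose and 3 fell. The list had a median log2 change of 0.50, against 0.00 over all genes of 30 to 100 CPM, with 10 of 14 members positive. Its members of highest level that did not pass were NFAT, Mef2, kay and puc. kay, the fly Fos, had 316 and 249 CPM at day 30 and 194, 156 and 172 CPM at day 10 (log2 change 0.70 ± 0.18, adjusted p = 0.0771). puc, a phosphatase gene induced by Jun kinase signalling, had 285 and 219 CPM at day 30 and 190.2, 160.1 and 133 CPM at day 10 (log2 change 0.65 ± 0.27, adjusted p = 0.274). Mef2 went the other way, at 222 and 175 CPM at day 30 and 266, 297 and 283 CPM at day 10 (log2 change -0.51 ± 0.18, adjusted p = 0.211), as did NFAT, with 279.9 and 255 CPM at day 30 and 310.3, 374 and 329 CPM at day 10 (log2 change -0.34 ± 0.13, adjusted p = 0.245). The nuclear receptor gene Hr38, an activity marker in insect brains, had 112 and 40.8 CPM at day 30 and 29.6, 29.4 and 23.3 CPM at day 10, a log2 change of 1.48 that did not pass (adjusted p = 0.199). It was chosen after its values were seen. Without day 30 replicate 1 the median of the list was 0.22, and without day 30 replicate 2 it was 0.75.

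The cytosolic chaperonin CCT, a ring that folds actin and tubulin, had a positive log2 change in each of the 7 subunits tested, and 2 of them passed. Of all 2297 genes of 10 to 30 CPM, 18 rose and 4 fell. CCT5 (2R:12174802-12177516) had 55.8 and 34.9 CPM at day 30, against 22.9, 14.3 and 20.1 CPM at day 10 (log2 change 1.24 ± 0.27, adjusted p = 0.0386). CCT1 (3R:22489105-22491439) had 29.9 and 25.7 CPM at day 30 and 15.5, 13.2 and 12.7 CPM at day 10 (log2 change 1.01 ± 0.23, adjusted p = 0.045). The other subunits had log2 changes of 0.56 to 1.09, and 6 of the 7 (85.7%) reached an unadjusted p under 0.05, as did 12.6% of all genes of 10 to 30 CPM. CCT2 had 62.1 and 50.3 CPM at day 30 and 40.6, 21.2 and 31.9 CPM at day 10 (log2 change 0.85 ± 0.23, adjusted p = 0.0894), and CCT3 had 36.98 and 28.6 CPM at day 30 and 17.8, 16.97 and 11.4 CPM at day 10 (log2 change 1.09 ± 0.28, adjusted p = 0.0693). The median of the 7 was 0.85, against 0.05 over all genes of 10 to 30 CPM. It lay 0.81 to 0.82 above the median of all genes under each of the 3 scalings. A scaling moves all genes almost alike, so that difference could hardly have changed. CCT5 overlaps exons of EndoG on the opposite strand. Of 14 genes of the Hsp70 and Hsp90 machinery, 0 passed with a median of 0.06, and of 7 small heat shock and related genes 0 passed with a median of 0.33. Hsc70-4, the constitutive cytosolic Hsp70, had 1061 and 1212 CPM at day 30 and 1040, 867 and 851 CPM at day 10 (log2 change 0.31 ± 0.18, adjusted p = 0.488).

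Genes of DNA repair contributed 3 of the genes that rose. Xrp1 (3R:18914968-18926989), a stress-induced bZIP transcription factor downstream of p53, had 548 and 453 CPM at day 30, against 184, 171 and 241 CPM at day 10 (log2 change 1.33 ± 0.20, adjusted p = 0.00429). rad50 (2R:22421013-22425482), of the complex that senses broken DNA ends, had 42.4 and 41.9 CPM at day 30 and 25.8, 23.5 and 25.3 CPM at day 10 (log2 change 0.76 ± 0.15, adjusted p = 0.0198), so the day 30 libraries differed by less than 1 CPM. Its partners, chosen after their values were seen, did not pass. mre11 had 10.3 and 10.8 CPM at day 30 and 4.71, 6.64 and 4.30 CPM at day 10 (log2 change 1.02 ± 0.27, adjusted p = 0.0771), and nbs had 14.8 and 15.7 CPM at day 30 and 10.5, 12.4 and 16.8 CPM at day 10 (log2 change 0.20 ± 0.24, adjusted p = 0.796). PolZ1 (2R:7793625-7801044), the catalytic subunit of the translesion polymerase zeta, had 43.9 and 34.2 CPM at day 30 and 18.6, 17.1 and 20.2 CPM at day 10 (log2 change 1.06 ± 0.18, adjusted p = 0.00882). In the list of 17 double-strand break repair genes 2 rose and 0 fell, with a median of 0.21, and all genes of that level class, 10 to 30 CPM, had one of 0.05. Of the 2297 genes in that class 18 rose and 4 fell. In the list of 16 translesion and excision repair genes 1 rose and 0 fell, with a median of 0.31 in the same class and 15 members positive. The members of highest level that did not pass were tefu, the fly ATM kinase, with 88.4 and 103 CPM at day 30 and 104, 85.8 and 77.9 CPM at day 10, and the damage recognition gene Xpc, with 111 and 112 CPM at day 30 and 101, 101 and 81.1 CPM at day 10. p53, chosen after its values were seen, had 10.8 and 8.82 CPM at day 30 and 10.6, 12.6 and 11.3 CPM at day 10 (log2 change -0.24 ± 0.27, adjusted p = 0.769).

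Of 30 aminoacyl-tRNA synthetase genes, which charge tRNAs for translation, 1 rose and 0 fell, against 18 and 4 of all 2297 genes of 10 to 30 CPM. AspRS (2R:12877004-12883168), the cytosolic enzyme for aspartate, had 56.2 and 55.6 CPM at day 30, against 30.1, 28.5 and 27.9 CPM at day 10 (log2 change 0.96 ± 0.20, adjusted p = 0.0386). The antisense RNA asRNA:CR45141 overlaps it on the opposite strand and also rose, with 11.1 and 15.5 CPM at day 30 and 5.94, 4.11 and 3.13 CPM at day 10 (log2 change 1.61). The 2 were counted on separate strands. At day 40 asRNA:CR45141 averaged 4.66 CPM, close to its 4.39 CPM at day 10, while AspRS averaged 75.4 CPM at day 40. The median of the synthetases was 0.21, against 0.05 over all genes of 10 to 30 CPM, and it was 0.07 without day 10 replicate 3. GluProRS had 59.01 and 76.2 CPM at day 30 and 59.5, 45.6 and 50.3 CPM at day 10 (log2 change 0.39 ± 0.18, adjusted p = 0.354), while IleRS had 73.2 and 76.1 CPM at day 30 and 132, 93.4 and 92.5 CPM at day 10 (log2 change -0.50 ± 0.21, adjusted p = 0.274).

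Genes of the photoreceptor and its synapse were among those that fell. shakB (X:20761071-20927050) encodes an innexin of electrical synapses. It had 168 and 145 CPM at day 30, against 319, 311 and 332 CPM at day 10 (log2 change -1.04 ± 0.17, adjusted p = 0.0067), and the replicates of each age lay close together. Of the 5 innexin genes tested it alone passed, and the median of the 5 was -0.55, against 0.00 over all genes of 30 to 100 CPM. Of the 1847 genes in that class 16 rose and 3 fell. Inx2 had 76.7 and 85.7 CPM at day 30 and 118, 101 and 137 CPM at day 10 (log2 change -0.55 ± 0.17, adjusted p = 0.134). Hdc (2R:10237988-10246077) encodes histidine decarboxylase, which makes the photoreceptor transmitter histamine. Hdc had 229 and 236 CPM at day 30, against 445, 430.3 and 326 CPM at day 10 (log2 change -0.78 ± 0.17, adjusted p = 0.0386), and its exons overlap those of 2 genes on the opposite strand. t, whose product tan frees histamine from its conjugate for reuse, had 324 and 296 CPM at day 30 and 541, 635 and 426 CPM at day 10 (log2 change -0.79 ± 0.26, adjusted p = 0.165). CarT, a transporter in that recycling, had 421 and 373 CPM at day 30 and 492, 453 and 352 CPM at day 10 (log2 change -0.12 ± 0.21, adjusted p = 0.871). The list of 10 transmitter genes had a median of -0.39, against -0.22 over all genes of 300 to 1000 CPM, and of -0.21 without day 10 replicate 3.

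Of 21 genes of synaptic vesicle release, 0 rose and 2 fell, against 2 and 10 of all 441 genes of 300 to 1000 CPM. Syt1 (2L:2772327-2799979), the calcium sensor of release, had 2038 and 1714 CPM at day 30, against 3251, 3675 and 2649 CPM at day 10 (log2 change -0.77 ± 0.17, adjusted p = 0.0445). Sap47 (3R:15935100-15962124), a vesicle-associated protein gene, had 824 and 725 CPM at day 30 and 1163, 1223 and 1058 CPM at day 10 (log2 change -0.57 ± 0.13, adjusted p = 0.0488). The list had a median of -0.42, with 19 of 21 members negative and 11 (52.4%) at an unadjusted p under 0.05. Its members of highest level that did not pass were unc-13, cpx, Rim and Syn. cpx, the complexin that clamps fusion, had 4303 and 3800 CPM at day 30 and 5918, 6456 and 5213 CPM at day 10 (log2 change -0.53 ± 0.15, adjusted p = 0.102). unc-13, which primes vesicles, had 5304 and 3697 CPM at day 30 and 6166, 7324 and 5262 CPM at day 10 (log2 change -0.47 ± 0.23, adjusted p = 0.363). Rim had 1755 and 1260 CPM at day 30 and 2005, 2826 and 1808 CPM at day 10 (log2 change -0.55 ± 0.23, adjusted p = 0.282), and Syn had 1762 and 1299 CPM at day 30 and 2201, 2746 and 1804 CPM at day 10 (log2 change -0.56 ± 0.23, adjusted p = 0.274). The vesicle SNARE gene nSyb, chosen after its values were seen, differed little, with 1469 and 1592 CPM at day 30 and 1727, 1400 and 1308 CPM at day 10 (log2 change 0.05 ± 0.17, adjusted p = 0.942). These 21 genes had a median level of 692 CPM, and of all genes between 300 and 1000 CPM, 31.5% had an unadjusted p under 0.05 and the median log2 change was -0.22.

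No phototransduction gene passed the threshold. Of 22 tested, 19 had a negative log2 change, and 13 (59.1%) had an unadjusted p under 0.05, all of them lower, against 46.7% of all genes at 1000 CPM or more. The median was -0.44, against -0.38 for all genes of that level class, and the list's median level was 1440 CPM. The cascade was uneven. ninaE, trp, trpl and Arr2, with the receptor, both channels and the major arrestin, had log2 changes of 0.10, -0.02, 0.04 and 0.01. Among members chosen after their values were seen, the G protein subunit gene Gbeta76C had 713 and 827 CPM at day 30 and 1482, 1368 and 897 CPM at day 10 (log2 change -0.70 ± 0.20, adjusted p = 0.111). Its partner Ggamma30A had 3908 and 3015 CPM at day 30 and 5877, 6458 and 4493 CPM at day 10 (log2 change -0.70 ± 0.18, adjusted p = 0.074). Cds, which makes the CDP-diacylglycerol needed to rebuild the phospholipase substrate, had 990.2 and 1093 CPM at day 30 and 2096, 1714 and 1291 CPM at day 10 (log2 change -0.71 ± 0.20, adjusted p = 0.0989). norpA, the phospholipase C gene, had 7756 and 7568 CPM at day 30 and 12297, 10642 and 7762 CPM at day 10 (log2 change -0.42 ± 0.20, adjusted p = 0.353) and day 10 replicate 3 lay just above the day 30 libraries. Without day 10 replicate 3 the median was -0.61 and 4 of the 22 genes fell.

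Cpn (3R:12162887-12166186), which encodes calphotin, a calcium-binding protein of photoreceptors, was the one outer photoreceptor marker of 9 that fell. It had 277 and 289 CPM at day 30, against 635, 516 and 422 CPM at day 10 (log2 change -0.89 ± 0.16, adjusted p = 0.0124). The 9 markers had a median of -0.46 at a median level of 9205 CPM, against -0.38 over all genes at 1000 CPM or more, and of -0.28 without day 10 replicate 1. Of the 150 genes in that class 0 rose and 6 fell. Arr1 had 8267 and 8697 CPM at day 30 and 14603, 11777 and 10574 CPM at day 10 (log2 change -0.54 ± 0.22, adjusted p = 0.269), and chp, for the rhabdomere adhesion protein chaoptin, had 5372 and 6071 CPM at day 30 and 10565, 8161 and 5756 CPM at day 10 (log2 change -0.51 ± 0.24, adjusted p = 0.355).

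In the list of 14 genes for chromophore supply and Rh1 maturation, 0 rose and 2 fell, against 8 and 8 of all 1048 genes of 100 to 300 CPM. Of those that fell, only Hexo1 belongs to these processes, since the list also holds the lens gene Crys. Hexo1 (3L:4288641-4291211), a hexosaminidase that trims the glycan of newly made Rh1, had 124 and 148 CPM at day 30, against 271, 336 and 225 CPM at day 10 (log2 change -1.03 ± 0.22, adjusted p = 0.0397). Crys (2L:11944129-11947131), which encodes a protein of the corneal lens and is made by cells outside the photoreceptor, had 12.3 and 19.2 CPM at day 30 and 46.9, 32.2 and 37.00 CPM at day 10 (log2 change -1.29 ± 0.26, adjusted p = 0.0241). The median of the 14, Crys included, was -0.29, against -0.08 over all genes of 100 to 300 CPM, and -0.11 without day 10 replicate 1. fdl, which encodes another hexosaminidase, had 256 and 241 CPM at day 30 and 390.4, 379 and 276 CPM at day 10 (log2 change -0.49 ± 0.20, adjusted p = 0.269). Tsp42Ej, a tetraspanin gene needed for Rh1 turnover, had 165 and 197 CPM at day 30 and 335, 285 and 238 CPM at day 10 (log2 change -0.66 ± 0.17, adjusted p = 0.0771). Pdh, a retinol dehydrogenase gene, had 233 and 299 CPM at day 30 and 317, 269 and 286 CPM at day 10 (log2 change -0.13 ± 0.18, adjusted p = 0.834). Apart from Crys, the 6 other pigment and cone cell markers tested had log2 changes of -0.38 to 0.53 and did not pass.

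Ion transport genes mostly had negative log2 changes. Of 12 pumps and exchangers, 0 rose and 1 fell, with a median of -0.47, against -0.22 over all genes of 300 to 1000 CPM, and 11 members negative. Of the 441 genes in that class 2 rose and 10 fell. Nhe3 (2L:6677835-6684364), a sodium-proton exchanger gene, had 386 and 358 CPM at day 30, against 674, 647 and 506 CPM at day 10 (log2 change -0.71 ± 0.16, adjusted p = 0.045). Atpalpha, the catalytic subunit of the sodium pump, had 4380 and 3611 CPM at day 30 and 6455, 6751 and 5353 CPM at day 10 (log2 change -0.63 ± 0.16, adjusted p = 0.0676), and its beta subunit gene nrv3 had 2970 and 2187 CPM at day 30 and 3821, 4369 and 3678 CPM at day 10 (log2 change -0.62 ± 0.18, adjusted p = 0.106). For both genes the day 30 libraries lay below all day 10 libraries and the adjusted p missed the threshold. Of 21 potassium channel genes 0 passed, and the median was -0.31, against 0.00 over all genes of 30 to 100 CPM. Their median level was 95.9 CPM, near the edge of that class, and all genes of 100 to 300 CPM had a median of -0.08. The channel genes Sh and slo lie above 1000 CPM, where the median of all genes was -0.38. Sh, the Shaker channel gene, had 2594 and 1556 CPM at day 30 and 6534, 6040 and 3038 CPM at day 10 (log2 change -1.33 ± 0.33, adjusted p = 0.0654). slo, a calcium-activated channel gene, had 1790 and 1242 CPM at day 30 and 2296, 2692 and 1725 CPM at day 10 (log2 change -0.56 ± 0.21, adjusted p = 0.23).

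alphaTub84B (3R:7086599-7088839), the main alpha-tubulin gene, had 1641 and 1119 CPM at day 30, against 2416, 3783 and 2219 CPM at day 10 (log2 change -1.02 ± 0.23, adjusted p = 0.0477).  A pair of mitochondrial genes was also among the 12 named genes that fell. Mpcp2 (3L:14537651-14540441), the mitochondrial phosphate carrier, had 285 and 392 CPM at day 30 and 895, 655 and 562 CPM at day 10 (log2 change -1.06 ± 0.22, adjusted p = 0.0339). Tom20 (3L:20000644-20002446), the outer membrane import receptor, had 21.6 and 25.4 CPM at day 30 and 51.3, 45.7 and 37.4 CPM at day 10 (log2 change -0.93 ± 0.20, adjusted p = 0.0391). None of 66 nuclear-encoded respiratory chain genes passed, and their median was -0.21 with 56 negative, against 0.05 over all genes of 10 to 30 CPM. Genes of the mitochondrial genome had a median of -0.35, and 0 of 16 passed. Their median was -0.13 without day 10 replicate 3 and -0.56 without day 10 replicate 1, and all genes of 300 to 1000 CPM had one of -0.22. mt:lrRNA, the large mitochondrial ribosomal RNA, had 6902 and 4213 CPM at day 30 and 9644, 10048 and 12756 CPM at day 10 (log2 change -0.96 ± 0.23, adjusted p = 0.0581).

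The other named genes that fell have roles outside these lists. TotC (3R:20872988-20873580), a Turandot gene of the humoral stress response, had 6.62 and 9.91 CPM at day 30, against 25.7, 32.6 and 33.7 CPM at day 10 (log2 change -1.88 ± 0.41, adjusted p = 0.0432). sunz (3R:6630151-6631184) had 799 and 369 CPM at day 30 and 1704, 2733 and 1480 CPM at day 10 (log2 change -1.76 ± 0.36, adjusted p = 0.0316). Fie (3L:3892574-3894833) had 169 and 196 CPM at day 30 and 604, 407 and 286 CPM at day 10 (log2 change -1.24 ± 0.26, adjusted p = 0.0386). In sunz and Fie the highest library of day 10 was about 2 times its lowest. CG34377 (3R:22308663-22324094) had 5.24 and 4.35 CPM at day 30, against 16.02, 15.4 and 12.1 CPM at day 10 (log2 change -1.60 ± 0.29, adjusted p = 0.0156). CG4666 (X:6076072-6077786) had 6.01 and 5.68 CPM at day 30 and 17.1, 18.8 and 13.7 CPM at day 10 (log2 change -1.497 ± 0.31, adjusted p = 0.0361). CG17724 (2R:13176094-13190086) had 29.4 and 18.7 CPM at day 30 and 46.3, 54.3 and 42.8 CPM at day 10 (log2 change -0.99 ± 0.23, adjusted p = 0.0464), and its exons overlap those of Kdm4B and seq on the same strand, so its counts are uncertain.

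Other lists gave no call. The 81 cytosolic ribosomal protein genes had a median of 0.27 with 73 positive, and 0 passed. Without day 30 replicate 2 their median was 0.10, and without day 10 replicate 1 it was 0.18. In the 17 genes for SR proteins and splicing the median was -0.36, and 0 passed. It was -0.20 without day 30 replicate 2. ps, a splicing regulator of the Nova type, had 2566 and 2330 CPM at day 30 and 3416, 3615 and 2931 CPM at day 10 (log2 change -0.44 ± 0.14, adjusted p = 0.154), and the SR protein gene B52 had 448 and 318 CPM at day 30 and 512, 628 and 478 CPM at day 10 (log2 change -0.49 ± 0.18, adjusted p = 0.23). None of 8 core clock genes passed (median -0.07). per had 80.9 and 87.8 CPM at day 30 and 69.2, 58.5 and 70.1 CPM at day 10, and tim had 407 and 468 CPM at day 30 and 414, 377 and 571 CPM at day 10, with overlapping groups in tim. None of 6 antimicrobial peptide genes passed (median 0.62, but -0.40 without day 30 replicate 2 and 0.09 without day 10 replicate 3), and their levels were low, with DptA at 2.16 and 5.44 CPM at day 30 and 0.224, 1.16 and 1.97 CPM at day 10. Across all 53 lists, 20 of 968 distinct genes tested passed (2.07%), against 0.92% of all genes tested. Calls also differed by level. Of 441 genes at 300 to 1000 CPM 2 rose and 10 fell, against 6 and 0 of 2080 below 3 CPM. The lists were chosen with earlier results of these data known, so the 2.07% is no measure of enrichment. The calls of some named genes held under fewer than 15 of 27 alternatives. They held under 8 for Sap47 and alphaTub84B, 11 for CCT1, 12 for TTLL12, Nhe3 and CG17724, 13 for Hdc and 14 for Hexo1 and Syt1. Of 36 genes followed through the alternatives, 5 kept their call without day 30 replicate 1 and 12 without day 30 replicate 2.

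**Figure D3:**
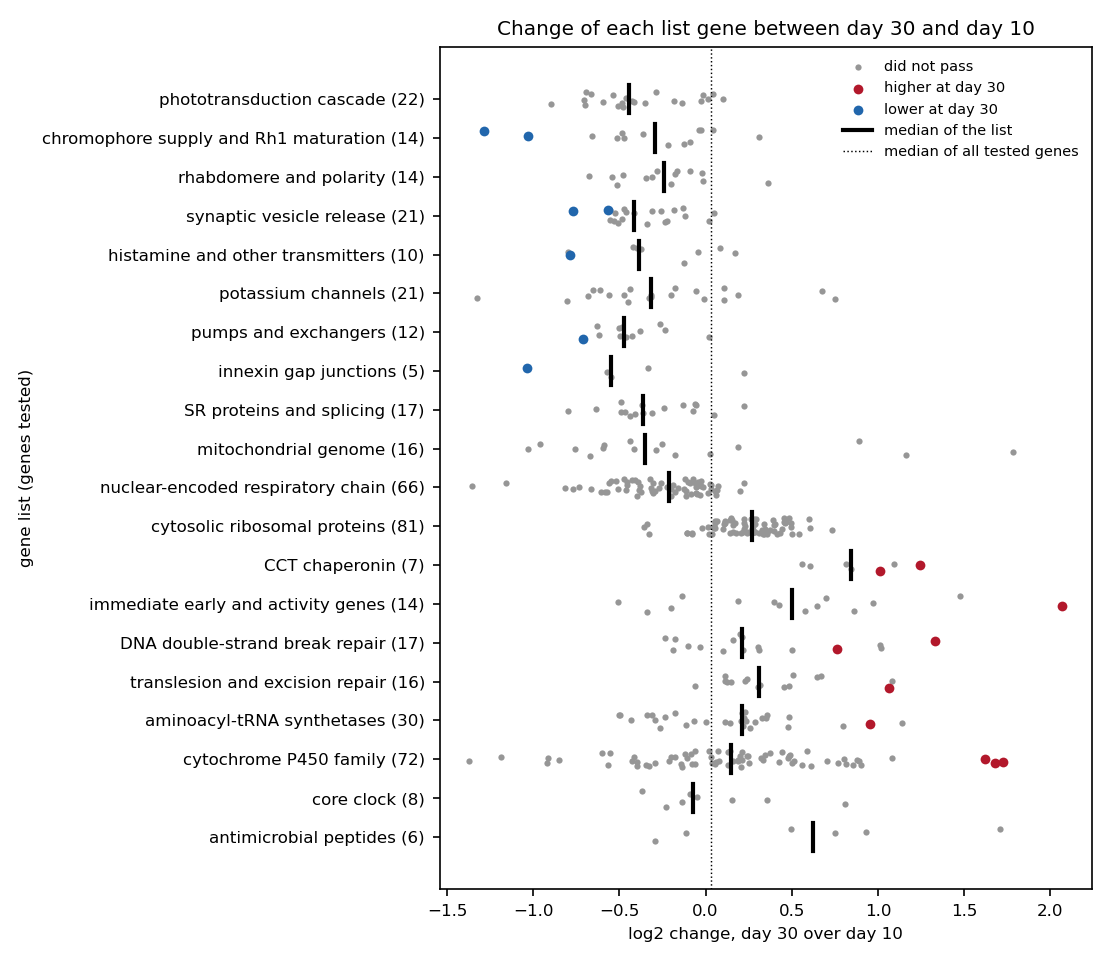
Log2 change at day 30 over day 10 for each gene of 20 lists, with genes that rose in red, genes that fell in blue and other genes in grey. Black bars are list medians and the dotted line is the median of all genes tested (0.03). The photoreceptor, synapse, ion transport and innexin lists have medians of -0.55 to -0.24, and the CCT subunits lie to the right of 0.5.

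Markers of other cell types were checked as whole lists. All 6 muscle markers had positive log2 changes (0.39 to 0.64, median 0.48, and 0.23 without day 10 replicate 2), and 0 passed. Mhc, the muscle myosin heavy chain, had 336 and 444 CPM at day 30 and 334, 163 and 375 CPM at day 10. Day 10 replicate 2 was the low library in 5 of the 6, and the groups overlapped in 4 of the 6, Mhc among them. Of 7 glial markers 0 passed, from alrm at -0.79 to loco at 0.50. The defining glial gene repo had 38.8 and 52.9 CPM at day 30 and 31.7, 28.3 and 50.4 CPM at day 10 (log2 change 0.31 ± 0.28, adjusted p = 0.69). Of 8 brain and optic lobe neuron markers 0 passed, and 3 were positive and 5 negative, from Pdf at -1.64 to ple at 0.73. Their median was -0.23, against 0.00 over all genes of 30 to 100 CPM, and it was 0.07 without day 10 replicate 3. Gad1 had 61.2 and 77.3 CPM at day 30 and 113, 82.4 and 165 CPM at day 10 (log2 change -0.80 ± 0.26, adjusted p = 0.156). None of 5 hemocyte markers passed (median 0.10, but -0.49 without day 30 replicate 2 and -0.08 without day 10 replicate 2), and of the olfactory and male germline lists only 3 genes and 1 gene were measured. The part of these cell types in the genes above was not tested.

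The remaining 59 genes past the threshold, 44 higher and 15 lower, lay outside the naming rule and the lists, and those named next were chosen after their values were seen. blow, a myoblast fusion gene, had 84.1 and 83.96 CPM at day 30, against 36.97, 34.5 and 27.97 CPM at day 10 (log2 change 1.35 ± 0.16, adjusted p = 0.000558). dpr11, an immunoglobulin-domain gene for neuronal recognition, had 184 and 150.3 CPM at day 30 and 77.1, 93.6 and 73.1 CPM at day 10 (log2 change 1.04 ± 0.16, adjusted p = 0.00506). bnl, the FGF ligand that guides tracheal branches, had 45.1 and 34.8 CPM at day 30 and 20.9, 16.7 and 17.9 CPM at day 10 (log2 change 1.11 ± 0.17, adjusted p = 0.0047). The list of 13 small RNA silencing genes had 0 members past the threshold and a median of 0.20. Outside it, qin, a gene of the piRNA pathway that silences transposons, had 10.2 and 7.61 CPM at day 30 and 1.68, 2.002 and 1.02 CPM at day 10, and the piRNA precursor lncRNA:flam had 9.24 and 5.92 CPM at day 30 and 2.35, 2.95 and 1.82 CPM at day 10. lncRNA:CR40469 had 421 and 253 CPM at day 30 and 131, 152 and 108 CPM at day 10 (log2 change 1.37 ± 0.21, adjusted p = 0.00443). CG14626 had 2.31 and 2.42 CPM at day 30 and 0, 0 and 0.0728 CPM at day 10, and its day 10 values rest on at most 1 read pair per library, so no fold is given.

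On the lower side, CG6329 had 365 and 358 CPM at day 30, against 719.6, 691 and 644 CPM at day 10 (log2 change -0.92 ± 0.12, adjusted p = 0.00168). ctp, a dynein light chain gene, had 233 and 212 CPM at day 30 and 410.0, 409 and 354 CPM at day 10 (log2 change -0.81 ± 0.13, adjusted p = 0.0047). DopEcR, a receptor for dopamine and ecdysteroids, had 688 and 514 CPM at day 30 and 1148, 1097 and 962 CPM at day 10 (log2 change -0.83 ± 0.16, adjusted p = 0.0241). M7BP, for a myosin-binding protein, was the most abundant transcript that fell, with 7679 and 6385 CPM at day 30 and 16191, 12455 and 10167 CPM at day 10 (log2 change -0.88 ± 0.19, adjusted p = 0.0386). pho, a DNA-binding Polycomb group gene, had 137 and 104 CPM at day 30 and 195, 213 and 189 CPM at day 10 (log2 change -0.72 ± 0.16, adjusted p = 0.0397). Among the 32 genes that fell, the lowest log2 change was that of scpr-C, with 2.47 and 1.93 CPM at day 30 and 13.1, 15.9 and 7.79 CPM at day 10 (log2 change -2.48 ± 0.49, adjusted p = 0.0245). The 6 genes called in each of the 14 fits that left out 1 library were CG9759, Arc1, CG31100, blow, lncRNA:CR31781 and CG6329.

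The features of the genes are described with no test. Exons of Yp1, CR43281, PolZ1, AspRS, Tom20, Hexo1 and CG34377 overlap a gene on the opposite strand, and counting was by strand. The median level was 24.4 CPM for the genes that rose, 300.0 CPM for those that fell and 13.2 CPM for all genes tested. In the BDGP6 annotation the median span, introns included, was 3959 bp for the genes that rose, 7293 bp for those that fell and 2700 bp for all tested. Non-coding RNA genes made up 10 of the 63 that rose (15.9%) and 0 of the 32 that fell, against 6.75% of all tested. Called genes also lay near each other. There were 10 pairs of called genes less than 10000 bp apart, involving 16 genes, which is 17% of the called genes, while 3.87% of all genes tested had a called gene within that distance. In 7 of the 10 pairs both genes moved the same way, among them PolZ1, TTLL12 and puml on 2R and CG12698 beside Muc14A on X. Cbs rose and bves, 4866 bp away, fell. pho fell and CG33521, 4139 bp away, rose.

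The levels at day 30 are set here beside those at the other ages. In the genes that rose, the median log2 ratio to day 10 was 0.79 at day 20, 1.08 at day 25, 1.33 at day 30 and 1.58 at day 40. In the genes that fell it was -0.54 at day 20, -0.71 at day 25, -0.89 at day 30 and -0.83 at day 40. All of these ratios share the day 10 libraries, and the genes were chosen for their value at day 30, so they are descriptions. Single genes took different courses. Arc1 averaged 38.6 CPM at day 10, 89.00 at day 20, 139.7 at day 25, 163 at day 30 and 362 at day 40, and Cyp4p2 averaged 75.3 CPM at day 10, 131 at day 20, 217 at day 25, 249.6 at day 30 and 543 at day 40, each highest at day 40. TTLL12 averaged 25.6 CPM at day 10, 82.03 at day 20, 148 at day 25, 77.2 at day 30 and 81.2 at day 40, highest at day 25. Cpn averaged 525 CPM at day 10, 291 at day 20, 277 at day 25, 283 at day 30 and 392 at day 40, and shakB averaged 320.3 CPM at day 10, 266 at day 20, 186 at day 25, 156 at day 30 and 155 at day 40, with most of the Cpn difference already present at day 20.

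**Figure D4:**
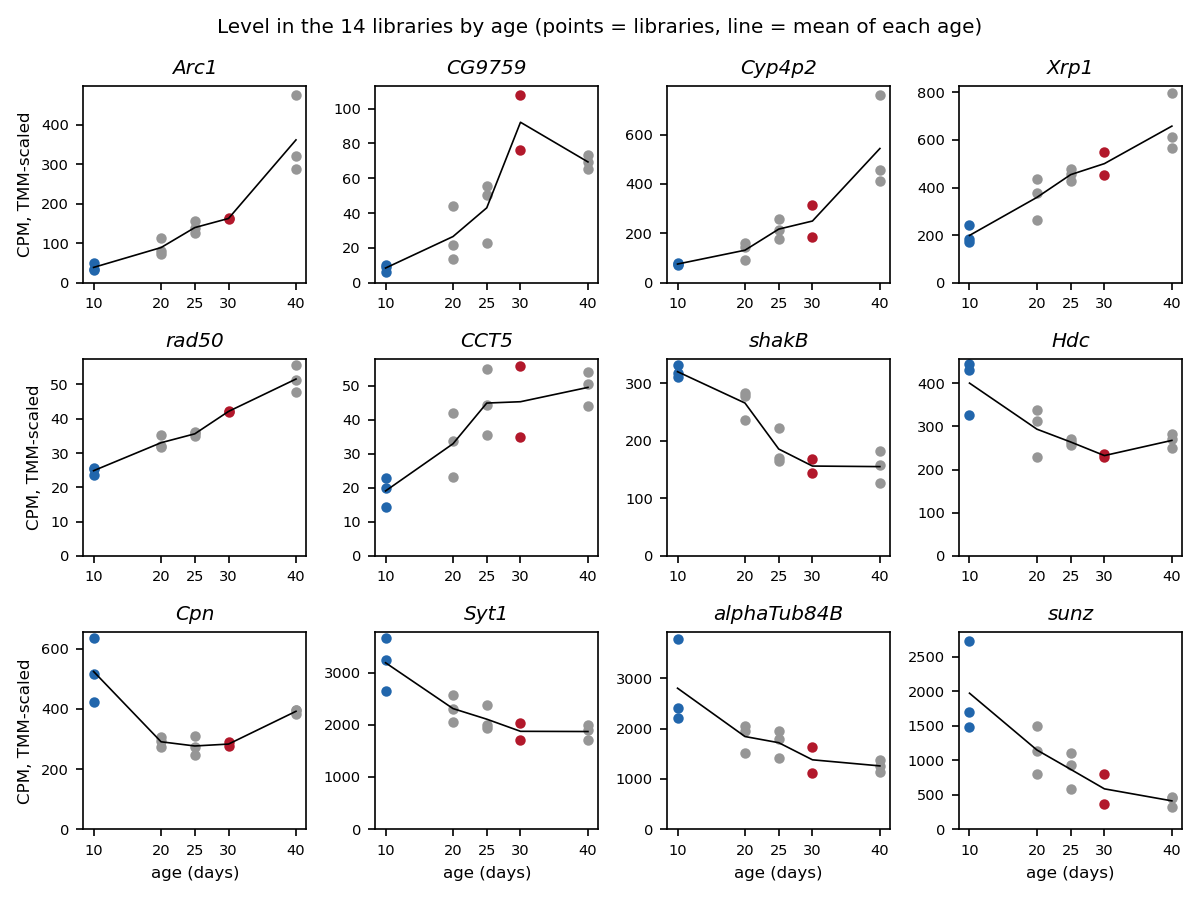
Level of 12 genes that passed the threshold in the 14 libraries by age (TMM-scaled CPM, axes from 0), with day 10 in blue, day 30 in red and the other ages in grey. Points are libraries and the line joins the mean of each age. Arc1 reaches a mean of 362 CPM at day 40, and Cpn stays between 277 and 392 CPM at the 4 later ages.

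The libraries of days 20 and 40 gave the same measure in samples that were not in the comparison, although they shared in its estimate of the spread. In a fit of these 6 libraries alone, 44 of the 10328 genes passed at day 40 against day 20 (0.426%), 28 higher (0.271%) and 16 lower (0.155%). Of the 63 genes that rose at day 30, 54 had a positive log2 change at day 40 over day 20 (85.7%, against 50.2% of all genes), 14 rose again past the threshold (22.2%) and 0 fell. Their median was 0.80, against 0.00 over all genes. Arc1 had a log2 change of 2.02 ± 0.23 (SE, n = 3 each, adjusted p = 0.00249), and Cyp4p1 of 2.17 ± 0.28 (SE, n = 3 each, adjusted p = 0.00697). Among genes chosen after their values were seen, bnl had 1.74 ± 0.14 (SE, n = 3 each, adjusted p = 0.000917) and hzg 1.64 ± 0.17 (SE, n = 3 each, adjusted p = 0.00229). Of the 32 genes that fell at day 30, 28 had a negative log2 change (87.5%, against 49.8% of all genes), 1 fell past the threshold (3.12%) and 0 rose. That gene was sunz, with -1.49 ± 0.23 (SE, n = 3 each, adjusted p = 0.0182). The median of the 32 was -0.32. The gene lists stood as follows in these 6 libraries, described with no test. All 7 CCT subunits were positive (median 0.48), 79 of 81 cytosolic ribosomal protein genes were positive (median 0.45), and 18 of 21 synaptic vesicle genes were negative (median -0.20), as were 10 of 12 pumps and exchangers (median -0.24) and 15 of 21 potassium channels (median -0.16). Several lists with negative medians at day 30 had positive ones here. Of the phototransduction genes 12 of 22 were positive (median 0.07), of the outer photoreceptor markers 7 of 9 (median 0.27), of the rhabdomere genes 13 of 14 (median 0.21), of the respiratory chain genes 43 of 66 (median 0.09) and of the auditory markers 5 of 7 (median 0.30).

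**Figure D5:**
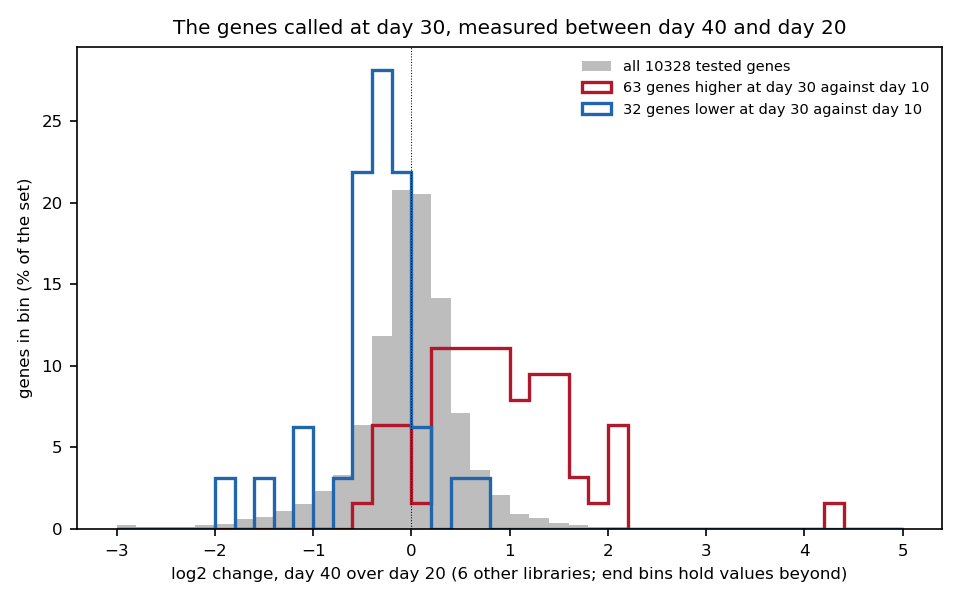
Distribution of the log2 change at day 40 over day 20 in the 6 libraries of those ages, as a percent of each set. Grey bars are all 10328 genes (median 0.00), the red line is the 63 genes that rose at day 30 against day 10 (median 0.80), and the blue line is the 32 genes that fell (median -0.32).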

How the data were processed

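The deposited table holds raw counts per gene, which the authors made with TopHat and HTSeq on BDGP6, after trimming with Trimmomatic, counting uniquely aligned read pairs by strand. The authors' CPM columns in a second table were not used. Replicate numbers are those of the column names. The sample descriptions number the columns differently, so the sample behind replicates 1 and 2 of each age is not settled, but the age is. Gene counts per library were 6213255 to 13530076 in the 5 libraries compared, so 3 counts correspond to 0.222 to 0.483 CPM. Rows that name no gene were left out, of which pairs on no feature came to 60.7 to 112 per 100 gene counts. Differential expression was tested with edgeR 4.0.16 (R 4.3.3, quasi-likelihood F test, TMM) in a fit with a separate mean for each age over 14 libraries, which share 1 estimate of the spread, and p-values were adjusted by Benjamini and Hochberg over 10328 genes. SE is the log2 change divided by the square root of F. CPM values are TMM-scaled. The members of the comparison and the gene lists were chosen with earlier results of these data known. Named genes were the 12 with the largest log2 change in each direction, among those past the threshold with a mean of at least 10 CPM and groups that did not overlap, every list member past the threshold, and up to 4 others per list with the highest CPM. Lists were also set beside all genes of the level class that held their median level, and their medians taken without each of the 5 libraries. Alternatives were DESeq2 1.42.0, limma-voom (limma 3.58.1), other scalings, filters, covariates and libraries. On simulated data of 10328 genes with 200 changed, edgeR recovered 77% of 4-fold and 41% of 2-fold changes, and 1.67% of its calls were false. The simulated libraries had no deviations shared across genes, as single libraries may have here. These rates therefore need not hold for the real calls. No fold is given where day 10 values rest on a few read pairs. A promoter motif search was not analysed here.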

Additional observations from a re-analysis of the deposited data

Results flagged for a closer look

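Read pairs on no annotated feature, which are no gene and served only as a covariate in 1 alternative, came to 111.6 per 100 gene counts in day 30 replicate 1 and 111.9 in day 30 replicate 2, above the 103, 100.4 and 60.7 of the day 10 libraries and the highest 2 of the 14 libraries.

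The day 30 library discarded by the study held 518520 gene counts, and its values are CPM without TMM scaling. All 12 named genes that rose lay there above every day 10 library, as did 38.1% of all genes tested, and the 12 genes had been chosen for their day 30 values. It had 25.1 CPM for Yp1, 52.1 for CG9759, 19.3 for CR43281, 129 for Arc1, 55.9 for Muc14A, 21.2 for CG10126, 17.4 for nompB, 106 for Cbs, 237 for Cyp4p2, 57.9 for CG31100, 150.4 for Cyp4p1 and 65.6 for TTLL12. Of the 12 named genes that fell, 11 lay below every day 10 library, as did 30.5% of all genes tested. These values rest on 5 to 768 read pairs per gene.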

How the results depend on the processing

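The 95 calls became 375 with DESeq2 (157 higher, 218 lower), 36 with limma-voom, 182 with scaling by library size alone (168 higher, 14 lower, 92.3% higher, with a median of all genes of 0.23), 184 with no filter on low counts, 28 with only the 5 libraries of days 10 and 30, 150 with the discarded library kept, 511 with the no-feature ratio as covariate, 55 with library size as covariate and 61 with a log2 change of at least 1 also required. DESeq2 size factors in edgeR gave 79. Leaving out 1 library gave 11 to 214 calls, with 11 without day 30 replicate 1, 24 without day 30 replicate 2, 24 without day 10 replicate 1, 31 without day 10 replicate 2, 214 without day 10 replicate 3, 51, 60 and 56 without day 25 replicates 1, 2 and 3, and 48 and 60 without day 40 replicates 1 and 2. The replicate block left 36 calls. Libraries with the same number had r = 0.005 and -0.16 between their deviations at days 10 and 30. The 2 day 30 libraries deviate as mirror images, so these values cannot settle whether the numbers pair libraries. Over all ages the median r was -0.02 for libraries with the same number and 0.00 for others. The 15 genes called again at day 40 against day 20 became 37 with DESeq2 and 7 to 17 on leaving out 1 library. None of the 36 genes followed changed direction. Their day 30 and day 10 libraries did not overlap, so leaving out 1 of these libraries could hardly reverse it. Leaving out single libraries for the library measures and the list medians was chosen after seeing the data, and the difference in no-feature pairs was then 9.90 to 31.2. The cause of these changes was not tested.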
